A study of Mus musculus with 8 samples.

Results

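The T cell costimulation and PD-1 checkpoint genes described here are the receptor gene Pdcd1, its ligand genes Cd274 and Pdcd1lg2, the costimulatory genes Cd80, Cd86, Cd40 and Tnfrsf9, and Ciita, which switches on MHC class II genes. They were looked up by symbol among the 55450 genes of the deposited table, and all 8 were found. A macrophage that presents antigen shows peptides on MHC class II molecules and offers a second signal through CD80 and CD86, which bind CD28 on T cells. PD-L1 and PD-L2, the products of Cd274 and Pdcd1lg2, restrain T cells by binding PD-1. PD-1 is best known on activated lymphocytes, but macrophages can carry it too. CD40 and 4-1BB, the latter encoded by Tnfrsf9, are TNF receptor family members that signal through TRAF proteins to NF-kB. The genes were chosen by their counts in these same libraries, on the difference between the cell lines compared, so that difference is described below and not tested.

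The samples were total RNA libraries of RAW264.7, an established mouse macrophage-like cell line, in a line with a control shRNA that silences nothing (shNS) and a line with an shRNA directed at Dis3l2 (shDis3l2), the gene of an exoribonuclease for uridine-tailed RNAs. Each line was grown for 4 days with 1 µg/mL doxycycline, a drug commonly used to switch on an shRNA, or without it. The drug-treated cells gave 3 libraries in either line and the untreated cells 1. The labels do not say how many clones each line represents, or that replicates were separate cultures, so p-values measure the spread between these libraries, which may be technical. Library totals ran from 30341823 to 45557804 counts, and 17388 to 18267 genes were detected. Dis3l2 stood at 27.9 ± 5.54 CPM (counts scaled to library depth) in shNS and 13.5 ± 1.46 CPM in shDis3l2 with doxycycline (SD, n = 3 in each), and at 29.6 and 28.6 CPM without it. Every comparison of the lines with doxycycline takes in any difference that was there without it. All 10 macrophage markers listed had enough counts to be tested, with summed levels of 6325 to 12017 CPM. Of 16 T cell markers, 9 had no count in any library, among them Cd3e, Cd3g, Cd247, Cd8a, Trac, Trbc1 and Trbc2, and the list summed to 1.98 to 4.83 CPM. Of 8 B cell markers, Ms4a1 and Blk had no count in any library. That list summed to 1.96 to 5.88 CPM in shNS and 18.1 to 85.8 CPM in shDis3l2, almost all of it from Ighm.

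Promoter sequence from RefSeq on GRCm38.p6 was matched for 5 of the 8 genes. The Pdcd1 and Cd274 windows, 250 bases before to 50 after the transcript start, are shown because receptor and ligand differed between the lines in opposite directions. Capitals mark matches to short motifs searched on both strands. Pdcd1 is on the minus strand at chr1:94052504-94052803, and Cd274 on the plus strand at chr19:29367188-29367487.
Pdcd1: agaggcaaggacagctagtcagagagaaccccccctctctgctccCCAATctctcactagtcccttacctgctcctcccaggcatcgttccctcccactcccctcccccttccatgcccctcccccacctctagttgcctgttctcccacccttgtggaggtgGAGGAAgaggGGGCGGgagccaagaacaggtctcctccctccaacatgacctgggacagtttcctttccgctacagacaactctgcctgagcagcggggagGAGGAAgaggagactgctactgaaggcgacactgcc
Cd274: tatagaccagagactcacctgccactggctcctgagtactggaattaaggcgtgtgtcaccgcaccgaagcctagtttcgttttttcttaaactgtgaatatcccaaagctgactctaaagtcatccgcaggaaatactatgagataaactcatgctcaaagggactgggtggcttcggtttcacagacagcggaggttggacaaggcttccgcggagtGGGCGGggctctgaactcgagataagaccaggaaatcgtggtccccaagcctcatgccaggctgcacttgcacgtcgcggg
The Pdcd1 window holds GAGGAA, the core bound by the myeloid factor PU.1, at 87 bases before the start and again 15 bases after it. It also holds GGGCGG, a GC box, at 77 bases before the start and CCAAT at 205 bases before it. The Cd274 window holds GGGCGG at 31 bases before the start and none of the other letters searched. Among 32851 promoter windows of this length, GAGGAA was present in 28.3%, GGGCGG in 35.7% and CCAAT in 37.4%. The core of the interferon-stimulated response element was in 3.44%, the NF-kB site in 1.47%, and TATAAA in 13.6%. The element core and the NF-kB site matched none of the windows of the members or of the class II genes below. In the windows of the other matched members, Pdcd1lg2 holds TTCCTC, which is GAGGAA on the other strand, at 82 bases before the start. The Cd80 window, at chr16:38458683-38458982, holds TTTATA at 5 bases after its transcript start. Tnfrsf9 has 2 windows, at chr4:150919905-150920204 and chr4:150927749-150928048. The former holds CCAAT or its reverse at 3 positions and CCGCCC, the reverse of GGGCGG, at 10 bases before its transcript start. These Cd80 and Tnfrsf9 windows lie inside the gene spans given below, not at their first base. No 2 matches overlapped in the printed windows, and a match describes letters only.

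Ciita acts on class II promoters without binding DNA itself, through factors on the X and Y boxes. The 120 bases before the start of the class II genes H2-Aa, H2-Eb1 and H2-DMb1 are shown because these genes are compared with Ciita below. They lie at chr17:34287824-34287943 (minus strand), chr17:34305747-34305866 (plus) and chr17:34153071-34153190 (plus), and capitals mark CCAAT, the core of the Y box that NF-Y binds, with its reverse ATTGG, and AACNGATG, the letters of an X1 box.
H2-Aa: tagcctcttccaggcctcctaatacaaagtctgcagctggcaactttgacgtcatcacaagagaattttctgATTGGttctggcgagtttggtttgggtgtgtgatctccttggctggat
H2-Eb1: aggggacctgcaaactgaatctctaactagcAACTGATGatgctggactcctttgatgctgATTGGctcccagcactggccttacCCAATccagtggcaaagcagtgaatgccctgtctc
H2-DMb1: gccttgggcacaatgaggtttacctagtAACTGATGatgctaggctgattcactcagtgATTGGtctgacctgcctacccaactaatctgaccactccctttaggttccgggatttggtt
H2-Eb1 and H2-DMb1 each hold AACTGATG, at 89 and 92 bases before the start, followed by ATTGG at 59 and 61 bases. H2-Aa holds ATTGG at 48 bases before the start and no AACNGATG in its window. AACNGATG, whose letters were set with these promoters in view, was present in 2.32% of the 32851 windows.

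Pdcd1 was close to silent in shNS and clearly present in every shDis3l2 library. Pdcd1 (ENSMUSG00000026285, GRCm38 chromosome 1, 94038305 to 94052553, minus strand) had 0, 1 and 2 counts in shNS replicates 1, 2 and 3 with doxycycline and 1 count in shNS without it. In shDis3l2 it had 879, 503 and 234 counts with doxycycline and 891 without. These are 20.1, 14.7 and 6.91 CPM with doxycycline and 22.6 CPM without, so every shDis3l2 library lay above every shNS library. The summed counts with doxycycline, scaled for depth, gave a ratio of 485 (95% counting interval 166 to 2354), and the libraries without doxycycline a ratio of 825 (148 to 32617). Without shNS replicate 3 the fitted log2 fold change moved from 8.71 (SE 0.71) to 9.54. Intervals cover counting error only. Without doxycycline, when the Dis3l2 levels of the lines were 29.6 and 28.6 CPM, Pdcd1 was thus already high in shDis3l2. Ighm, an immunoglobulin heavy chain gene on the B cell list, was also higher in shDis3l2, at 85.7, 34.7 and 18.1 CPM against 3.84, 4.71 and 1.81 CPM (log2 fold change 3.74, edgeR adjusted p = 0.0317), and at 27.0 against 5.68 CPM without doxycycline. That call was lost without shNS replicate 1 or 3 or shDis3l2 replicate 2, at adjusted p = 0.0766, 0.0827 and 0.107 in edgeR, with no filter on low counts (0.0935) and by limma-voom (0.0576). The whole B cell list summed to 1.96 to 5.88 CPM in shNS and 18.1 to 85.8 CPM in shDis3l2, almost all of it Ighm, and its part in the Pdcd1 result was not tested. In these bulk libraries, fewer cells with an RNA and less of it per cell cannot be told apart.

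The ligand genes of PD-1 lie side by side on chromosome 19, with starts 43.5 kb apart, and were at very different levels. Cd274 (ENSMUSG00000016496, 29367455 to 29388095, plus strand) was at 7.995, 6.44 and 7.97 CPM in shNS replicates 1, 2 and 3 with doxycycline and at 5.97, 3.53 and 3.25 CPM in shDis3l2. The groups did not overlap, although shDis3l2 replicate 1 lay close to the lowest shNS library. The means of shNS and shDis3l2 were 7.47 ± 0.892 and 4.25 ± 1.49 CPM (SD, n = 3 in each), which is 56.9% of the shNS level (log2 fold change -0.81, SE 0.28). Without doxycycline the libraries of shNS and shDis3l2 were at 5.52 and 2.11 CPM, the shNS level being 2.62-fold higher (2.02 to 3.42). Of the genes that could be tested, Cd274 had the smallest difference between the lines and was the only one whose lines overlapped once all 8 libraries were set side by side. Pdcd1lg2 (ENSMUSG00000016498, 29410919 to 29471161, plus strand) had 0 to 3 counts in every library and did not pass the filter on low counts, so no fold is given. An antisense gene within Cd274 had at most 2 counts in a library, and the antisense gene A930007I19Rik, which overlaps Pdcd1lg2, had 4 to 56.

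Both B7 genes, whose products deliver the costimulatory signal to CD28, were at about 10% of the shNS level or less in shDis3l2. Cd80 (ENSMUSG00000075122, chromosome 16, 38455561 to 38496335, plus strand) was at 9.003, 21.5 and 14.0 CPM in shNS replicates 1, 2 and 3 with doxycycline and at 2.22, 0.584 and 1.27 CPM in shDis3l2. Every shDis3l2 library lay below every shNS library, and the mean was 10.9-fold lower (14.8 ± 6.28 against 1.36 ± 0.820 CPM, log2 fold change -3.43, SE 0.54). Without doxycycline the Cd80 levels of shNS and shDis3l2 were 18.3 and 0.432 CPM, or 42.3-fold lower (26.2 to 73.1). Cd86 (ENSMUSG00000022901, chromosome 16, 36603869 to 36666081, minus strand) varied little within shNS, at 2.96, 2.84 and 3.80 CPM with doxycycline and 3.49 CPM without. In shDis3l2 it was at 0.274, 0.233 and 0.443 CPM with doxycycline, from 8 to 15 counts per library, and at 0.127 CPM without, from 5 counts. The groups were far apart, with the mean 10.1-fold lower (3.20 ± 0.523 against 0.317 ± 0.111 CPM, log2 fold change -3.32, SE 0.36) and 27.4-fold lower without doxycycline (11.5 to 86.0). Cd80 and Cd86 start 1.852 Mb apart.

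The TNF receptor genes differed between the lines in opposite directions. Cd40 (ENSMUSG00000017652, chromosome 2, 165055627 to 165072948, plus strand) was at 1.95, 0.117 and 2.13 CPM in shNS replicates 1, 2 and 3 with doxycycline and at 13.0, 10.1 and 8.98 CPM in shDis3l2. The lines did not overlap, but the shNS libraries fell into a low library, replicate 2 with 4 counts, and a pair with 62 and 74 counts. The shNS library without doxycycline had 5 counts, or 0.137 CPM, like replicate 2, and the shDis3l2 library without doxycycline was at 3.18 CPM. The mean was 7.64-fold higher in shDis3l2 with doxycycline (10.7 ± 2.06 against 1.40 ± 1.11 CPM, log2 fold change 2.94, SE 0.82, and 3.71 by limma-voom) and 23.1-fold higher without it (9.66 to 72.5). Tnfrsf9 (ENSMUSG00000028965, chromosome 4, 150914562 to 150946102, plus strand) was at 2.71, 11.9 and 57.9 CPM in shNS replicates 1, 2 and 3 with doxycycline, from 86, 406 and 2012 counts. In shDis3l2 it was at 0.251, 0.146 and 0.354 CPM, from 5 to 12 counts. The groups did not overlap, yet replicate 3 carried most of the shNS mean of 24.2 ± 29.6 CPM, against 0.251 ± 0.104 CPM in shDis3l2. The log2 fold change of -6.56 (SE 1.35) moved to -4.85 without shNS replicate 3 and to -5.67 by limma-voom. Without doxycycline its levels in shNS and shDis3l2 were 2.58 and 0.610 CPM, 4.23-fold lower (2.68 to 6.93). Camta1 overlaps Tnfrsf9 on the other strand and had 357 to 575 counts in every library. The strand setting of the counting is not given in the sources used here.

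Ciita, the master regulator of class II genes, was near silent in all 4 shDis3l2 libraries and varied widely within shNS. Ciita (ENSMUSG00000022504, chromosome 16, 10480059 to 10528418, plus strand) was at 17.2, 29.4 and 1.75 CPM in shNS replicates 1, 2 and 3 with doxycycline, from 545, 1005 and 61 counts. It was at 40.9 CPM in shNS without doxycycline, the highest of the 8 libraries. In shDis3l2 it was at 0.343, 0.175 and 0.266 CPM with doxycycline and 0.432 CPM without, from 6 to 17 counts per library. Even shNS replicate 3 lay above every shDis3l2 library, and the mean was 61.7-fold lower in shDis3l2 (16.1 ± 13.9 against 0.261 ± 0.0840 CPM, log2 fold change -5.91, SE 1.11). The log2 fold change was -5.14 without shNS replicate 2 and -5.13 by limma-voom. Without doxycycline the level was 94.6-fold lower (58.9 to 163). Dexi overlaps Ciita on the other strand and had 142 to 239 counts in every library.

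**Figure D1:**
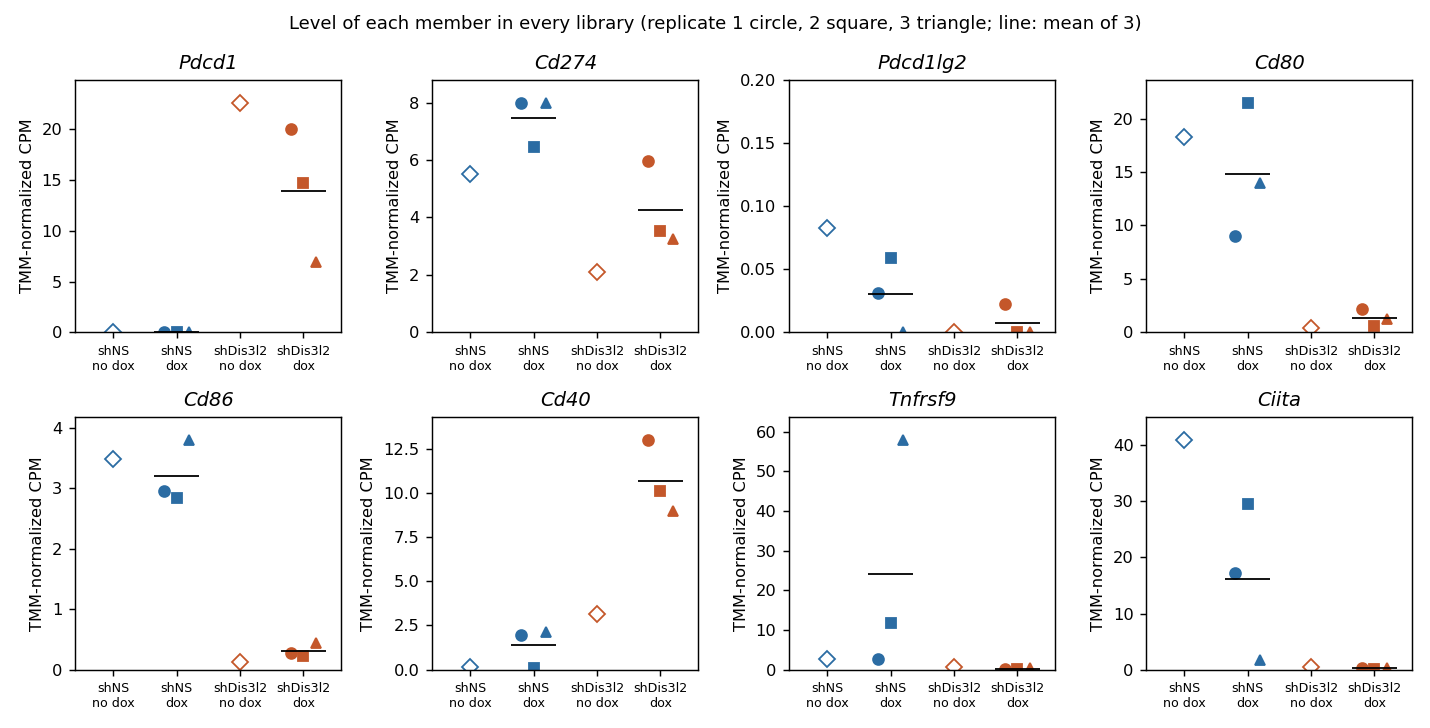
TMM-normalized CPM (vertical axes, linear, each gene on its own scale) of the 8 genes in every library. Filled circles, squares and triangles are replicates 1, 2 and 3 with doxycycline, open diamonds are the libraries without it, blue is shNS, orange is shDis3l2, and the line is the mean of 3. Pdcd1 and Cd40 are higher in shDis3l2, Cd80, Cd86, Tnfrsf9 and Ciita are low there, and shNS replicate 3 stands apart for Tnfrsf9 at 57.9 CPM and Ciita at 1.75 CPM.

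Set side by side, the differences between the lines were present with and without doxycycline. With it, 2 of the 7 genes with enough counts were higher in shDis3l2 and 5 were lower, and for all 7 the groups of 3 did not overlap, as was so for 27.7% of the 13752 genes tested (13.2% higher and 14.6% lower). At an edgeR adjusted p under 0.05, 1 was called higher and 4 lower, beside 6.14% of all genes called (2.13% higher and 4.01% lower). Because this contrast was used to choose the genes, nothing is read from that count. Without doxycycline each of the 7 differed at least 2-fold in the same direction, in 1 library per line, beside 20.7% of 15250 genes that differed that much (9.29% higher and 11.4% lower). With all 4 libraries of each line, 6 of the 7 genes were still apart, and Cd274 was the exception. The log2 differences without doxycycline were 8.10 for Pdcd1, 4.07 for Cd40, -1.36 for Cd274, -1.99 for Tnfrsf9, -4.28 for Cd86, -5.23 for Cd80 and -6.39 for Ciita. Those of Cd274, Cd80, Cd86, Cd40 and Ciita were larger in size than with doxycycline, and that of Tnfrsf9 smaller. For Pdcd1 no order is given, since its value rests on 1 shNS count and was 9.10 with a prior count of 0.5.

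**Figure D2:**
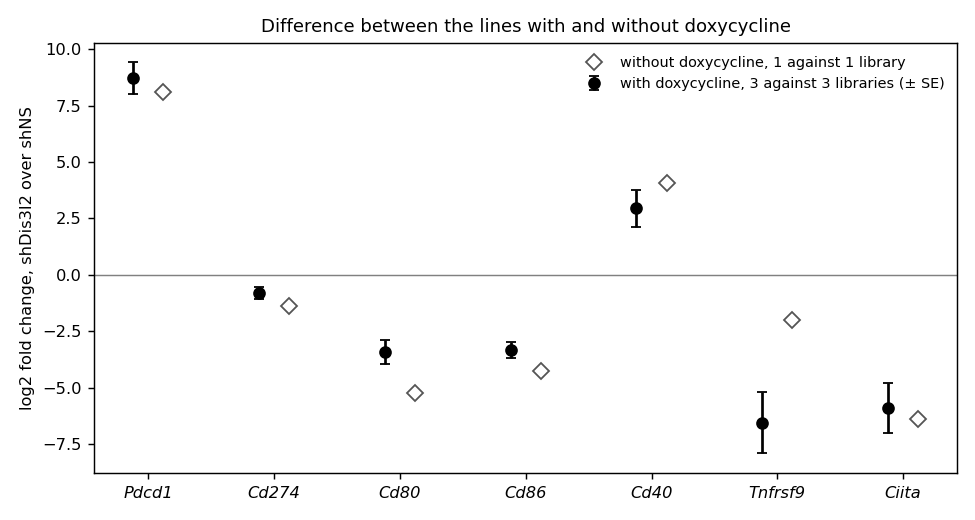
Log2 fold change of shDis3l2 over shNS (vertical axis) for the 7 genes with enough counts, with doxycycline (black points, 3 against 3 libraries, bars are SE) and without (open diamonds, 1 against 1, no error available). Each pair of symbols lies on the same side of 0, and the fitted value of Pdcd1 rests on 3 counts in shNS.

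Per kilobase of annotated exon, which allows genes to be compared, the order of the levels differed between the lines. In every shDis3l2 library Pdcd1 was highest, followed by Cd40 and Cd274. With doxycycline the shDis3l2 means were 7.20 CPM per kb for Pdcd1 and 3.14 for Cd40, whose ranges overlapped (3.58 to 10.4 and 2.64 to 3.81). Cd274 followed at 1.17 (0.897 to 1.65) and Cd80 at 0.367 (0.158 to 0.599), each below the range of the gene before it. Tnfrsf9, at 0.0921, and Cd86, at 0.0866 CPM per kb, overlapped each other, and Ciita was last of the genes with enough counts at 0.0274. In shNS, Cd80 was highest in 3 of the 4 libraries and Tnfrsf9 in replicate 3. The shNS means with doxycycline were 8.88 CPM per kb for Tnfrsf9 (0.994 to 21.3), 4.00 for Cd80 (2.43 to 5.80), 2.06 for Cd274 (1.78 to 2.21) and 1.69 for Ciita (0.184 to 3.08). Cd80 lay above the range of Cd274, while Tnfrsf9 and Ciita overlapped their neighbours in that order. Cd86, at 0.874 (0.775 to 1.04), lay above Cd40, at 0.411 CPM per kb (0.0344 to 0.625), and Pdcd1 was at 0.0150.

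Doxycycline itself was tested within each line, 3 libraries against 1, in a fit that lends the lone library the spread of the others. No effect on any of the 7 genes passed the test in either line, with edgeR adjusted p between 0.99 and 1. Over all 15250 genes edgeR called 0.0% in each line, against 646 genes in shNS and 504 in shDis3l2 at an unadjusted p under 0.05, and DESeq2 called 72 and 64. The smallest unadjusted p was 0.0522, for Cd274 in shDis3l2 (edgeR adjusted p = 1). The largest estimate was that of Cd40, which was at 0.137 CPM in shNS without doxycycline and at 1.95, 0.117 and 2.13 CPM with it (log2 fold change 3.32, SE 1.57, unadjusted p = 0.0751, adjusted p = 0.99 in edgeR). Of those 3 libraries, replicates 1 and 3 were above the library without doxycycline and replicate 2 was not. When replicate 2 was left out the estimate was 3.84 and passed the test (edgeR adjusted p = 0.00849), as did 544 of 15167 genes, or 3.59%.

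In shDis3l2, all 3 doxycycline libraries lay above the library without doxycycline for Cd274, Cd80, Cd86 and Cd40. The shDis3l2 estimates were 1.01 (SE 0.44) for Cd274, 1.65 (SE 0.86) for Cd80, 1.29 (SE 0.59) for Cd86 and 1.75 (SE 1.23) for Cd40 on the log2 scale. Pdcd1, Tnfrsf9 and Ciita lay below that library in all 3, by log2 estimates of -0.70 (SE 0.59), -1.27 (SE 1.70) and -0.70 (SE 1.55). In shNS, Cd274 and Tnfrsf9 were above the library without doxycycline in 3 of 3, and Ciita was below it in 3 of 3, with log2 estimates of 0.44 (SE 0.41), 3.23 (SE 1.78) and -1.34 (SE 1.15). The shNS estimates of Cd80 and Cd86 were -0.30 (SE 0.68) and -0.12 (SE 0.45). The difference between the lines in the doxycycline effect was tested for each gene and did not pass for any of the 7 (edgeR adjusted p = 1 for each). Over all genes that test called 0 by edgeR, with 577 at an unadjusted p under 0.05, and 34 by DESeq2.

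**Figure D3:**
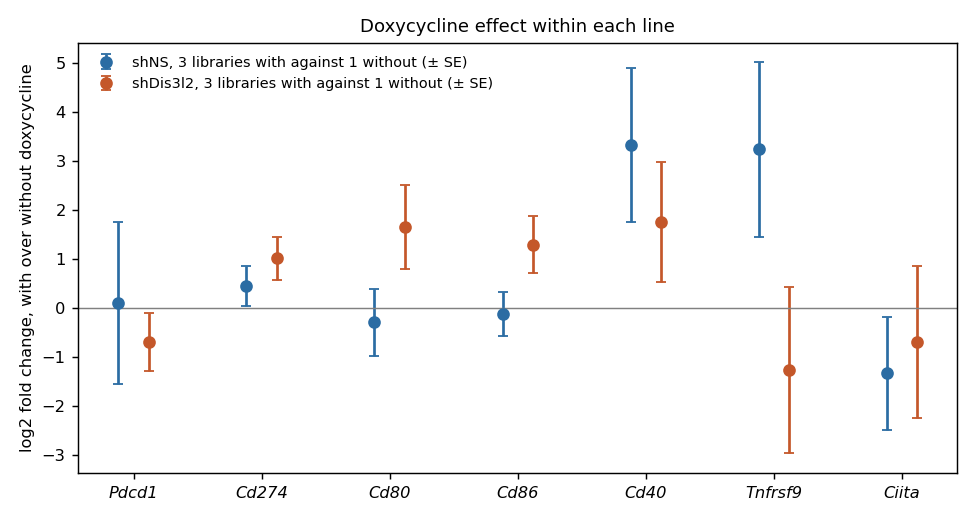
Log2 fold change with over without doxycycline (vertical axis) in shNS (blue) and shDis3l2 (orange) for the 7 genes with enough counts. Points are estimates from 3 libraries against 1 and bars are SE, and none of these effects passed the edgeR test.

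Several class II genes that Ciita switches on ranked the shNS libraries as it did. H2-Aa, the alpha chain of I-A, was at 13.7, 40.0 and 0.345 CPM in shNS replicates 1, 2 and 3 with doxycycline, at 68.5 CPM in shNS without doxycycline, and at 0.0254 to 0.297 CPM over the shDis3l2 libraries. H2-DMb1, part of the exchange factor that loads peptides, was at 3.56, 13.2 and 0.432 CPM in the same shNS replicates and at 20.6 CPM without doxycycline, against 0.0508 to 0.295 CPM in shDis3l2. Ciita, H2-Aa and H2-DMb1 thus ranked the 4 shNS libraries in the same order, from the library without doxycycline through replicates 2 and 1 to replicate 3. H2-Ab1 and H2-Eb1, the beta chains of I-A and I-E, had that order too, but shNS replicate 3 lay below the highest shDis3l2 library for both. H2-Oa and H2-Ob, on the same list, did not, being lower in shNS replicate 1 (0.818 and 0.976 CPM) than in replicate 3 (0.863 and 1.35 CPM). H2-DMa and H2-DMb2 shared the order of Ciita, and Ifi30 and March1 did not. Ctss and Lgmn had the reverse order, from 303.7 and 210.2 CPM in shNS without doxycycline up to 984.7 and 550.8 CPM in replicate 3. Outside this list, Tnfrsf14 and Icos had the order of Ciita too. The share of all genes with that order was not counted, and a part of Ciita in it was not tested. Cd74, the invariant chain, is also a known Ciita target and shared its order. Cd74 was at 1021 CPM in shNS without doxycycline and 870, 687 and 422 CPM in replicates 2, 1 and 3. Its level was high in all 8 libraries, and its lines overlapped (log2 fold change -0.18, edgeR adjusted p = 0.780).

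Of 14 class II presentation genes 13 were tested, and 0 passed in either direction by edgeR, with 9 at an unadjusted p under 0.05. The share of all genes at that unadjusted p was not counted, so nothing is read from the 9. DESeq2 called 6, namely H2-Aa, H2-Ab1, H2-Eb1, H2-DMb1, Ctss and Lgmn, which are lower in shDis3l2 with doxycycline. Over all 13752 genes DESeq2 called 1748. The doxycycline groups overlapped for H2-Ab1, H2-Eb1 and Ctss. Without doxycycline Ctss and Lgmn were higher in shDis3l2, at 361.5 and 377.7 CPM against 303.7 and 210.2 CPM in shNS. A lower estimate in shDis3l2 was found for 11 of the 13, with a median log2 fold change of -0.86 against 0.00 for all genes. The log2 fold changes of H2-Aa and H2-DMb1 were -7.09 (SE 1.88, edgeR adjusted p = 0.0935) and -5.08 (SE 1.32, adjusted p = 0.0810). Without shNS replicate 3 both passed, at edgeR adjusted p = 0.0193 for H2-Aa and 0.0194 for H2-DMb1. Over the alternatives the adjusted p ran from 0.000383 to 0.392 for H2-Aa and from 3.08e-06 to 0.297 for H2-DMb1 in edgeR, DESeq2 or limma. The list of DNA-bound partners through which Ciita acts, with the related Nlrc5, had log2 fold changes from -0.20 for Nfya to 0.53. All 8 genes of that list were tested, and 0 passed by edgeR or DESeq2, with 1 at an unadjusted p under 0.05 and a median of 0.11. Nfyc, a subunit of NF-Y, was at 31.1 ± 3.37 CPM in shNS and 40.6 ± 5.602 CPM in shDis3l2 (log2 fold change 0.39, edgeR adjusted p = 0.203), and Nlrc5, the class I counterpart of Ciita, at 25.1 ± 5.18 and 36.2 ± 11.9 CPM (0.53, adjusted p = 0.302). Rfx5, which binds the X box, was 0.04 higher in log2 units (adjusted p = 0.965 in edgeR).

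**Figure D4:**
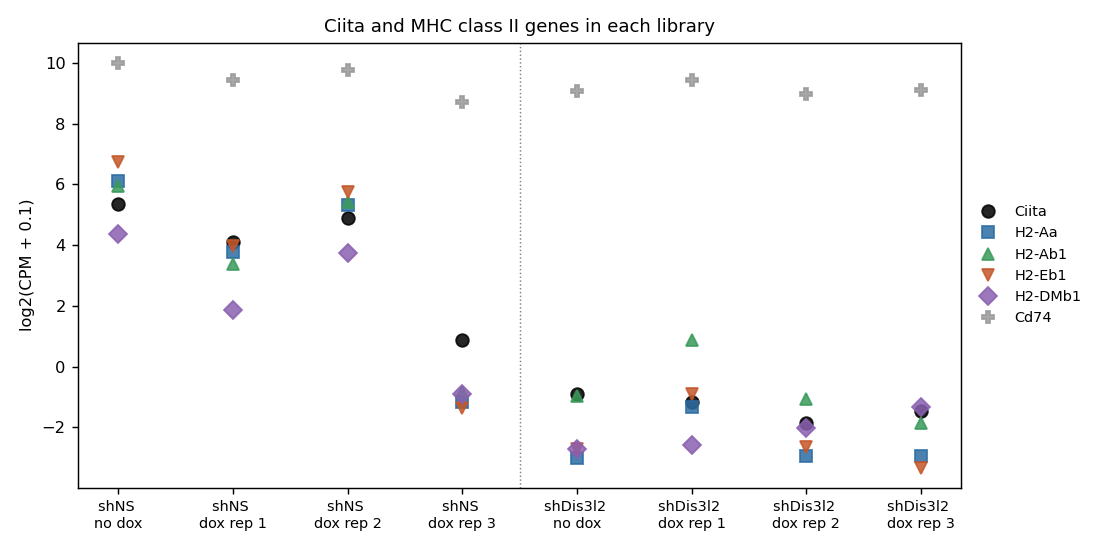
Levels of Ciita, 4 class II genes and Cd74 in each library, on a log2(CPM + 0.1) axis. From left to right are the 4 shNS and the 4 shDis3l2 libraries, divided by a dotted line. Ciita, H2-Aa, H2-Ab1, H2-Eb1 and H2-DMb1 drop together in shNS replicate 3 and are low in every shDis3l2 library, while Cd74 is high in all 8.

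Around these genes, 7 lists of 100 other pathway genes were read from the same fit. Of these, 78 could be tested, and with doxycycline 2 were higher and 4 lower in shDis3l2, or 7.69% beside 6.14% of all genes, with a median log2 fold change of 0.01. DESeq2 called 20 of them, beside 1748 of all 13752 genes. When single libraries were left out, edgeR called between 1 and 14 of them, beside 203 to 1157 over all genes. In the CD28 and B7 family, 6 of 11 genes were tested, 0 rose and 1 fell, with a median of -1.33. The gene that fell was Vsir, encoding the inhibitory B7 relative VISTA, at 206, 202 and 203 CPM in shNS and 88.9, 74.0 and 77.8 CPM in shDis3l2. These groups were far apart (log2 fold change -1.34, SE 0.13, edgeR adjusted p = 0.00292), and the call held without each library in turn, up to an adjusted p of 0.0291 in edgeR. Untreated shNS and shDis3l2 stood at 121 and 98.9 CPM, closer together than the treated libraries.

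Cd28, the receptor of CD80 and CD86, is mainly a T cell gene, and was chosen here after its values were seen. It was at 47.3, 309 and 16.1 CPM in shNS replicates 1, 2 and 3 with doxycycline and at 213 CPM without, against 1.12, 0.146 and 0.0591 CPM in shDis3l2 and 2.85 CPM without doxycycline. The lines did not overlap, the shNS libraries spread widely, and the test was just missed (log2 fold change -8.03, SE 1.67, edgeR adjusted p = 0.0502). It was passed without shNS replicate 2 or 3, at log2 fold changes of -6.06 and -8.55 (edgeR adjusted p = 0.0169 and 0.0419), and with scaling by library size alone, at 0.0371, and over the alternatives the adjusted p ran from 4.39e-06 by DESeq2 to 0.255. Beside it, Cd3e and Trac had no count in any library, as given above. Ctla4, the inhibitory receptor of the B7 proteins, was at 0.351 CPM or less in every library, too low to be tested. Icosl, the ligand of ICOS, and Icos differed by log2 values of 1.33 and -2.41 and did not pass (adjusted p = 0.0830 and 0.0666 in edgeR). Without shNS replicate 1 both passed, at edgeR adjusted p = 0.00677 and 0.0469, and DESeq2 called both.

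Among TNF family costimulatory genes 5 of 15 were tested, 0 rose and 2 fell, with a median of -2.01. For this list and the next, the shares called over all genes were 2.13% higher and 4.01% lower. Tnfsf13, encoding the B cell survival factor APRIL, was at 3.37, 4.10 and 4.201 CPM in shNS and at 1.097, 0.613 and 0.827 CPM in shDis3l2 (log2 fold change -2.19, SE 0.32, edgeR adjusted p = 0.0107). Tnfrsf8, encoding CD30, was at 1.70, 0.614 and 1.99 CPM in shNS and at 0.206, 0.175 and 0.118 CPM in shDis3l2 (-3.06, SE 0.55, adjusted p = 0.0214). The groups did not overlap for either gene, but the Tnfsf13 call was lost without shDis3l2 replicate 2 or 3 (edgeR adjusted p = 0.0618 and 0.0606) and the Tnfrsf8 call without shDis3l2 replicate 1, 2 or 3 (0.0793, 0.107 and 0.1). Cd40lg, the ligand of CD40, and Cd70 had no count in any library, with or without doxycycline. Tnfsf9, the ligand of 4-1BB, was at 10.9, 7.02 and 20.1 CPM in shNS and 31.3, 13.3 and 11.4 CPM in shDis3l2, groups that overlapped (log2 fold change 0.57, edgeR adjusted p = 0.609). Of 19 other inhibitory checkpoint genes 13 were tested, 0 rose and 1 fell, with a median of -0.22. That gene was Lgals3, encoding galectin-3, at 573, 788 and 1299 CPM in shNS and 331, 211 and 271 CPM in shDis3l2 (log2 fold change -1.71, SE 0.32, edgeR adjusted p = 0.0264), which was lost without shDis3l2 replicate 1, 2 or 3 (0.0744, 0.120 and 0.110).

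Downstream of CD40 and 4-1BB, all 16 signalling genes were tested, 2 rose and 0 fell, and the median was 0.38. Over all genes tested, edgeR called 2.13% higher and 4.01% lower. Birc3, encoding the ubiquitin ligase cIAP2, was at 36.7, 28.7 and 45.4 CPM in shNS and at 73.9, 69.7 and 71.9 CPM in shDis3l2 (log2 fold change 0.96, SE 0.18, edgeR adjusted p = 0.0227). Map3k14, encoding the kinase NIK of the alternative NF-kB route, was at 19.3, 15.2 and 27.9 CPM in shNS and at 41.3, 39.9 and 43.2 CPM in shDis3l2 (1.00, SE 0.22, adjusted p = 0.0425). Both genes were higher in every shDis3l2 library, as Cd40 was, while Tnfrsf9, the gene of the other receptor, was lower. With doxycycline, 13.2% of all genes tested had groups that did not overlap and were higher in shDis3l2. Both calls depended on the libraries used. The Birc3 call was lost without shDis3l2 replicate 1, 2 or 3 (edgeR adjusted p = 0.0789, 0.0923 and 0.0839). The Map3k14 call was lost without shNS replicate 1 or 2 (0.0740 and 0.0518) and without shDis3l2 replicate 1, 2 or 3 (0.116, 0.130 and 0.130), and in the fit of all 8 libraries (0.0523). Without doxycycline the levels in shNS and shDis3l2 were 30.1 and 60.9 CPM for Birc3 and 16.7 and 38.1 CPM for Map3k14. Traf1, an adaptor of both receptors, had a log2 fold change of 1.36 that did not pass (edgeR adjusted p = 0.130), but did without shNS replicate 1, at 1.0 (edgeR adjusted p = 0.0209), and by DESeq2.

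Of 17 genes that carry the PD-1 signal or set PD-L1 levels all were tested, and 0 passed in either direction by edgeR or DESeq2, with 2 at an unadjusted p under 0.05 and a median of 0.08. Ifngr2, a chain of the interferon gamma receptor, was at 84.4, 71.5 and 132.8 CPM in shNS and at 156, 139.9 and 154 CPM in shDis3l2 (log2 fold change 0.65, SE 0.23, edgeR adjusted p = 0.161). Jak2, the kinase bound to that receptor chain, was at 36.7, 30.3 and 41.7 CPM in shNS and at 33.1, 75.1 and 82.1 CPM in shDis3l2 (0.81, SE 0.34, adjusted p = 0.231). The groups did not overlap for Ifngr2 and overlapped for Jak2 through shDis3l2 replicate 1. Ifngr2 passed without shNS replicate 3 and Jak2 without shDis3l2 replicate 1 (edgeR adjusted p = 0.0256 and 0.0359), out of ranges up to 0.328 and 0.526 with single libraries left out. Irf1, an activator of Cd274 and Ciita, was 0.31 higher in log2 units and did not pass (adjusted p = 0.617 in edgeR). Ptpn6 and Ptpn11, the phosphatases SHP-1 and SHP-2 that PD-1 recruits, were at 237 ± 18.7 and 137 ± 13.6 CPM in shNS and at 277 ± 61.5 and 154 ± 4.98 CPM in shDis3l2, and neither passed (edgeR adjusted p = 0.547 and 0.526). Cmtm6, which keeps PD-L1 on the cell surface, was 0.22 higher in log2 units and did not pass (adjusted p = 0.363 in edgeR).

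**Figure D5:**
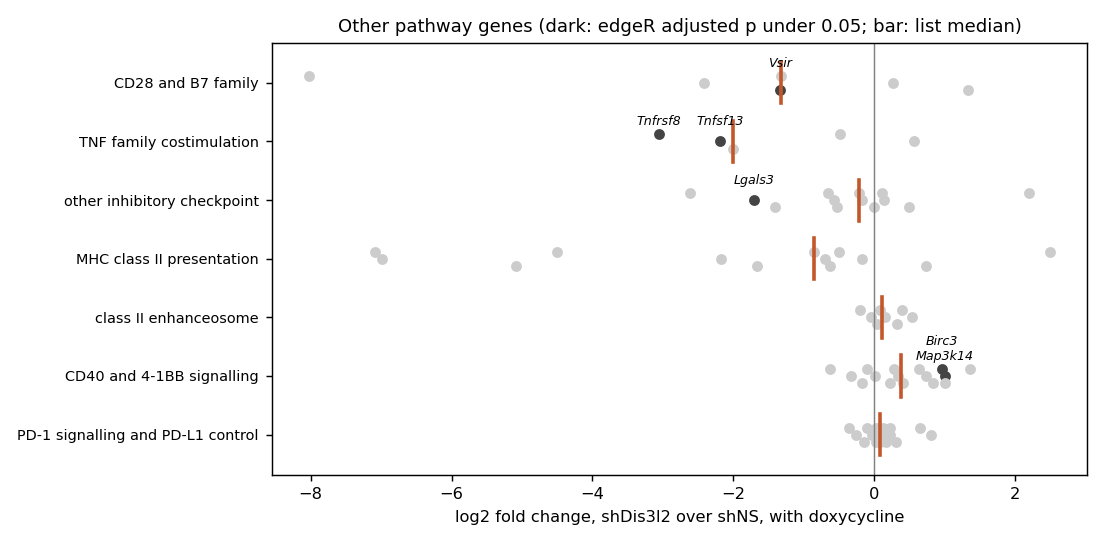
Log2 fold change of shDis3l2 over shNS with doxycycline (horizontal axis) for the 78 tested genes of 7 pathway lists. Each point is a gene, dark points passed the edgeR test and are named, and orange bars are list medians, which run from -2.01 to 0.38.

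Some markers of cell types also differed between the lines, with calls that depended on the libraries used. For scale, edgeR called 6.14% of all genes tested. Log2 fold changes of the macrophage markers were positive for 5 and negative for 5, with a median of -0.09. Among 10 macrophage markers, Adgre1, which encodes F4/80, was at 121, 63.0 and 99.2 CPM in shNS and at 10.7, 7.09 and 25.9 CPM in shDis3l2 (log2 fold change -2.70, SE 0.53, edgeR adjusted p = 0.0368), and edgeR called 0 higher. Csf1r, Itgam and Fcgr1 were higher in every shDis3l2 library and did not pass (log2 fold change 0.52, 0.58 and 0.52, adjusted p = 0.134, 0.139 and 0.253 in edgeR). With doxycycline, 13.2% of all genes tested had groups that did not overlap and were higher in shDis3l2. In either direction, DESeq2 called Adgre1, Csf1r and Cd68. The Adgre1 call was lost when shNS replicate 1, shNS replicate 3, shDis3l2 replicate 1 or shDis3l2 replicate 2 was left out (edgeR adjusted p = 0.0732, 0.0880, 0.110 and 0.103) and with no filter on low counts (0.0990). Among 8 dendritic cell markers 3 were tested, 1 rose and 0 fell. That gene, Siglech, had no count in shNS with doxycycline and was at 0.617, 0.875 and 0.502 CPM in shDis3l2 (edgeR adjusted p = 0.0122). That call was lost without shDis3l2 replicate 1 or 2 (0.0635 and 0.0576). The dendritic cell list summed to 9.66 to 47.2 CPM in shNS and 6.01 to 12.4 CPM in shDis3l2, most of it from Itgax, which macrophages express as well. Of the T cell list 3 genes were tested and edgeR and DESeq2 called 0, with 1 at an unadjusted p under 0.05, Lat (edgeR adjusted p = 0.146), and the list's sum ranged from 2.49 to 4.83 CPM in shNS and from 1.98 to 2.93 CPM in shDis3l2. The part of these markers in the differences of Cd80, Cd86, Tnfrsf9 and Ciita was not tested.

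The genes whose levels most resembled each member over the 8 libraries were found among 10359 genes by Pearson's correlation of log2 CPM. The 8 points fall into the 2 lines and share library depth, so these coefficients are a description. Pdcd1 was most like Hpgd (r = 0.995), which inactivates prostaglandins, and Rpl4 (r = 0.994), a ribosomal protein gene. Ciita was most like Tob1 (r = 0.993) and Gpr160 (r = 0.993), and Gpr160 also had its lowest shNS level in replicate 3, at 0.201 CPM, and its highest without doxycycline, at 6.37 CPM. Cd40 was most like Tmed10 (r = 0.992) and Ctnnbip1 (r = 0.987), the latter at 5.94 CPM in shNS replicate 2 against 16.7 and 22.2 CPM in replicates 1 and 3. Cd80 paired with Vps35 (r = 0.995) and Slc31a1 (r = 0.990), and Cd86 with Tnfrsf1b (r = 0.989), a TNF receptor gene, and Bicd1 (r = 0.987). Tnfrsf9 paired with Lims2 (r = 0.989) and Metrnl (r = 0.981), and Cd274 with 3110082I17Rik (r = 0.985) and Arl5c (r = 0.981).

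Of the protein-coding genes next to the members 9 could be tested, and edgeR called 0 of them, beside 6.14% of all genes tested. DESeq2 called 0, and 1 was at an unadjusted p under 0.05 in edgeR. The adjusted p in edgeR ran from 0.192 to 0.991. The smallest belonged to Plgrkt, next to Cd274, which was at 28.3 ± 3.64 CPM in shNS and 21.1 ± 2.86 CPM in shDis3l2 (log2 fold change -0.42). Adprh and Timmdc1, on either side of Cd80, had log2 fold changes of -0.16 and 0.06. Camta1 and Park7, beside Tnfrsf9, stood at 0.19 and -0.10, and Dexi, which overlaps Ciita, at -0.01 (4.80 ± 0.484 and 4.77 ± 0.644 CPM). Ncoa5, before Cd40, was at 0.28, Fam174a, beyond Pdcd1 with starts 1275.3 kb apart, at 0.22, and Ric1, beyond Pdcd1lg2, at -0.30. The groups with doxycycline did not overlap for Plgrkt, Ncoa5 and Ric1, as for 27.7% of all genes tested. Neu4, Casr, Ildr1, 1700025C18Rik and Tvp23a had too few counts to test. Pdcd1 and Dis3l2 are on the same chromosome, with starts 7.334 Mb apart.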

How the data were processed

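Total RNA was sequenced in 8 libraries as 150 nt pairs with a stranded kit, per the labels. Tools named in the submitters' processing notes are cutadapt, STAR 2.7, RSEM and the builds GRCm38 and mm10. The authors deposited expected counts per gene, without normalization, for 55450 genes, all matched to GENCODE M21. They were rounded, which altered 4.68 to 5.24% of each library's values. RSEM splits reads that fit several genes, so values of paralogs and overlapping genes are estimates.

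Genes passed filterByExpr (minimum count 10), libraries were scaled by TMM, and edgeR's quasi-likelihood test (R 4.3.3, edgeR 4.0.16, robust, two-sided, Benjamini-Hochberg over all genes, threshold 0.05) was run on 6 libraries and 13752 genes for the line difference. Doxycycline effects used 8 libraries as 4 groups, 15250 genes and 4 residual degrees of freedom. Ratios without doxycycline used a prior count of 2 on the log2 scale. Alternatives included DESeq2 1.42.0 and limma-voom 3.58.1. Members and gene lists were chosen with earlier results of these data known. For lists and neighbours, counts at an unadjusted p under 0.05 in the line difference come without a share over all genes. Nothing is read from those counts.

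The named genes are the members, from each list up to 4 genes past the threshold by smallest adjusted p (otherwise the 2 lowest), the 2 genes most like each member with a mean of at least 50 counts, the neighbouring genes and Dis3l2. Other named genes were chosen after their values were seen. A pathway gene is not reported here and is left out of the list counts. No fold is given where both lines had at most 3 counts in each library, and ratios against fewer counts carry counting intervals. No replicate pair agreed within counting noise (chi-square per gene at least 17.0). Tests were tried on simulated data.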

Additional observations from a re-analysis of the deposited data

Results flagged for a closer look

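Tnfrsf9 was higher with doxycycline in all 3 shNS libraries (2.71, 11.9 and 57.9 CPM against 2.58 CPM without) and lower in all 3 shDis3l2 libraries (0.251, 0.146 and 0.354 CPM against 0.610 CPM), so its estimates had opposite signs in the lines. The difference between the effects was -4.50 on the log2 scale (SE 2.39) and did not pass the test (unadjusted p = 0.111, edgeR adjusted p = 1). Without shNS replicate 3 it was -2.77, the estimate in shNS being 1.49 in place of 3.23. Leaving out single libraries gave adjusted p from 0.655 to 1. Each line had only 1 library without doxycycline.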

How the results depend on the processing

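Genes called between the lines numbered 845 by edgeR, 1748 by DESeq2 and 421 with the replicate block, and 203 to 1157 when single libraries were left out, with 203 without shDis3l2 replicate 2, 259 without replicate 3 and 464 without replicate 1. The other scalings, filters, limma-voom and the fit of all 8 libraries gave 743 to 854. Same-numbered libraries correlated at -0.122, 0.021 and -0.006 in their deviations from the group means, beside -0.091 to 0.101 for unlike numbers. No pairing by number was seen, but with 3 replicates this cannot show whether same-numbered libraries were prepared together. For the 6 calls among pathway genes, DESeq2 gave 20, the replicate block 4, of which 1, Vsir, was among the 6, and single libraries left out 1 to 14, the lowest without shDis3l2 replicate 2 or 3 and the highest without shNS replicate 3. For the doxycycline effect in shNS edgeR called 0 genes, 2 with no filter on low counts, 72 by DESeq2 and 0 to 544 with single libraries left out, the 544 without shNS replicate 2. In shDis3l2 DESeq2 called 64 against 0, and for the difference of the effects 34, with 2 without the filter and 0 to 121 with libraries left out, the 121 without shNS replicate 2. The cause of these changes was not tested. For 45 named genes outside the members, 549 refits kept the direction and the side of the threshold, 35 lost a call, 26 gained one and 14 changed sign. Among the members, 96 of the refitted line differences moved by less than the spread between replicates. The exceptions were Pdcd1 at 9.54 and Tnfrsf9 at -4.85 on the log2 scale, both without shNS replicate 3. No value past the threshold changed direction. Of those not past it, 16 refits of 7 genes changed sign. With single libraries left out, the Pdcd1 doxycycline effect in shNS ran from -0.74 to 0.60 and the difference of its effects from -1.31 to 0.03, the sign changing without shNS replicate 3 for both, on 0 to 2 shNS counts. The line differences ran from -0.03 to 1.06 for Tnfsf9, -0.25 to 0.37 for Rfx5, -0.43 to 0.07 for Cd74, -0.11 to 0.17 for Timmdc1, -0.19 to 0.03 for Park7 and -0.11 to 0.09 for Dexi. Dexi was also at 0.02 without the filter, 0.03 with library size alone and 0.0011 by limma-voom. With 1 library per line without doxycycline, and 0 to 3 counts of Pdcd1 and Pdcd1lg2 in shNS, depth and replication limit the size of those ratios.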
